A study of Mus musculus with 2 samples.

Results

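The regions described here were 650 distal EP300 peaks that hold an AP-1 core, the 7-base sequence TGA, then C or G, then TCA. They were taken from the 12570 distal peaks of the authors' optimal list, of which they made up 5.17%. A peak counted as distal when its summit lay more than 1 kb from every annotated transcription start site (TSS). The core had to lie within 100 bp of the summit on either strand, and peaks with an E-box-GATA composite in the same window (CTG, 7 to 9 bases, A or T, GATAA) were left out. In 285 of the 650 peaks (43.8%) a core was preceded by GC, which is the extended core bound by NFE2, and 365 peaks held the core without it. Within the optimal list the choice used sequence and position alone, so the place of the core within the window was free to vary. The optimal list was itself filtered on agreement between the same 2 libraries. This limited in advance how far signal and recurrence could vary. Every composite holds a GATA motif, so leaving the composite out also lowered the share of peaks with GATA.

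EP300 is a histone acetyltransferase and coactivator that other transcription factors bring to active enhancers. It was mapped by chromatin immunoprecipitation and sequencing in embryonic mouse liver (strain B6NCrl, 14.5 days, both sexes mixed), when the organ is full of red cell precursors. The 2 libraries formed 1 group, with no second tissue, age or genotype, and were made from pulverized livers pooled over several dissections. Both carry the same biosample label, so the spread between them may be technical. In bulk tissue, a weak peak in many cells and a strong peak in few cells cannot be told apart.

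AP-1 is a family of dimers of FOS and JUN proteins that bind the 7-base core. NFE2 (the p45 subunit), NRF2 and the repressor BACH1 belong to a related family, which binds as dimers with small MAF proteins, and the MAF partner reads the GC beside the core. NFE2 is known for its sites in the distal enhancers of the globin genes, and NRF2 and BACH1 for opposing roles at genes of heme breakdown, iron storage and the antioxidant response. The sequence does not tell which of these proteins was present, and none of them was assayed here.

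Several sets of sequences carry the results below and are given on the plus strand of GRCm38 (mm10), with 12 bases on either side and every core in capitals. A core read as TGACTCA followed by gc is the NFE2 core of the minus strand. The first set is the strongest peak of all, near Lao1 at chr4:119036753-119036783, and the runner-up, in an intron of Carmil1 at chr13:24159835-24159865, neither of which has GC beside the core.
Lao1: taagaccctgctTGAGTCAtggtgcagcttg
Carmil1: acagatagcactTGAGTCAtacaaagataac

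The second set is the pair of peaks upstream of Hbb-y, at chr7:103861072-103861112 and chr7:103866012-103866042, which were the strongest with an NFE2 core. In the nearer one, 2 NFE2 cores follow each other at 10 bp.
Hbb-y, nearer peak: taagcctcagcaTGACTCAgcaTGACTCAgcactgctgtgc
Hbb-y, farther peak: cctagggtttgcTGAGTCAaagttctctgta

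The third set lies at genes of the antioxidant response and at Bach1, at chr8:75083939-75084026 (Hmox1), chr19:9978630-9978660 (Fth1), chr9:77750735-77750765 (Gclc), chr7:45460969-45460999 (Ftl1), chr14:30564604-30564634 (Tkt) and chr16:87700093-87700123 (Bach1). Each one reads GC and then the core on the plus strand, and no GATA motif lay in the windows of these peaks.
Hmox1: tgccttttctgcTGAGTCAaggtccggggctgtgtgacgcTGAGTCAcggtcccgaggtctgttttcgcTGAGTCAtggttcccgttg
Fth1: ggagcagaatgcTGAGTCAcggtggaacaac
Gclc: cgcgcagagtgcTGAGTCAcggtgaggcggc
Ftl1: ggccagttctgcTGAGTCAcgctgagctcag
Tkt: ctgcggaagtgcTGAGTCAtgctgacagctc
Bach1: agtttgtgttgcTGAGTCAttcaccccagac

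The fourth set shows cores in series, at chr16:8810972-8811022 (near Usp7), chr13:36203172-36203285 (an intron of Fars2), chr13:81852773-81852829 (near Cetn3) and chr13:45623879-45624079 (an intron of Atxn1, nearest to the start of Gmpr). The last holds 10 cores, none of them with GC beside it.
Usp7: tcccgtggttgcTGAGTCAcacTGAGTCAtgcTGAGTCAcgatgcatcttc
Fars2: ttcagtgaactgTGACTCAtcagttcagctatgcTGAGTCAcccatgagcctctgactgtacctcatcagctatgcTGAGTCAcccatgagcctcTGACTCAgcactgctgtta
Cetn3: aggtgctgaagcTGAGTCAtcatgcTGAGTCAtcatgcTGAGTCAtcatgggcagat
Gmpr: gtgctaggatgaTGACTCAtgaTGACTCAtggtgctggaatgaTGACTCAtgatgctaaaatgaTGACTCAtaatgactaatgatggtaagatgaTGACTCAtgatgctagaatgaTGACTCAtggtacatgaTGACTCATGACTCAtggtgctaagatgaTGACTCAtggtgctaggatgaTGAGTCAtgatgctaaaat

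The NFE2 core was concentrated at the centre of distal EP300 peaks, and the core without GC much less so. Among all 12570 distal peaks, with the composite or without it, an NFE2 core lay within 100 bp of 337 summits (2.68%, 95% Wilson interval 2.41 to 2.98). In flanks of the same total length, 400 to 500 bp from the summit, it lay at 71 (0.565%, 0.448 to 0.712), a ratio of 4.75. The core without NFE2 stood at 491 centres (3.91%, 3.58 to 4.26) and at 359 flanks (2.86%, 2.58 to 3.16), a ratio of 1.37. Peaks are not replicates, and these intervals and those below cover counting error only.

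The bases beside the core differed between centres and flanks. GC preceded 43.3% of the 928 cores found at centres and 16.6% of the 1947 cores found in wider flanks, more than 200 and up to 600 bp from the summit. Both sides of each core were read, each on its own strand, so the shares add up to more than 100%. Of the 16 possible pairs of bases, GC had the highest ratio of centre to flank, at 2.60. CA followed with 16.2% at centres and 11% in flanks, a ratio of 1.46, and GA with 18.4% and 12.8%, a ratio of 1.44. CG was close, at 1.39. Every core was counted, and each of the 10 cores in the peak nearest to Gmpr has GA or CA beside it. The order of these runners-up was not checked without that peak. AT had the lowest ratio, with 1.72% at centres and 7.19% in flanks.

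Within the 650 peaks the NFE2 core also lay nearer to the summit. The centre of the nearest core was a median of 23.0 bp from the summit in the NFE2 peaks (95% interval 21 to 30, from order statistics) and 47.0 bp in the peaks without GC (42 to 52). Cores spread evenly over the window would have a median of 49 bp. The core lay within 25 bp of the summit in 150 of the 285 NFE2 peaks (52.6%), in 100 of the 365 peaks without GC (27.4%), and would do so in 26.2% if spread evenly. The difference between the classes was 25.2 percentage points (95% Newcombe interval 17.7 to 32.4). The limit of 25 bp was chosen after the distances had been seen.

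The same order held when the distances of the same peaks were measured from each library's own summits. The peaks and cores had been chosen around the optimal summit, and only library summits within 100 bp of it counted. Agreement was therefore partly built in. In replicate 1 the nearest core lay within 25 bp of that library's summit in 47.7% of NFE2 peaks and 24.6% of peaks without GC. The difference was 23.0 points (15.4 to 30.3). In replicate 2 the shares were 51.7% and 29.9%, a difference of 21.7 points (13.9 to 29.2). More cores in a window bring the nearest one closer by geometry. Among peaks with 1 core, the medians were 30 bp in 234 NFE2 peaks (24 to 35) and 48.0 bp in 351 peaks without GC (43 to 53), and the difference in the share within 25 bp was 19.1 points (11.2 to 26.8).

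**Figure D1:**
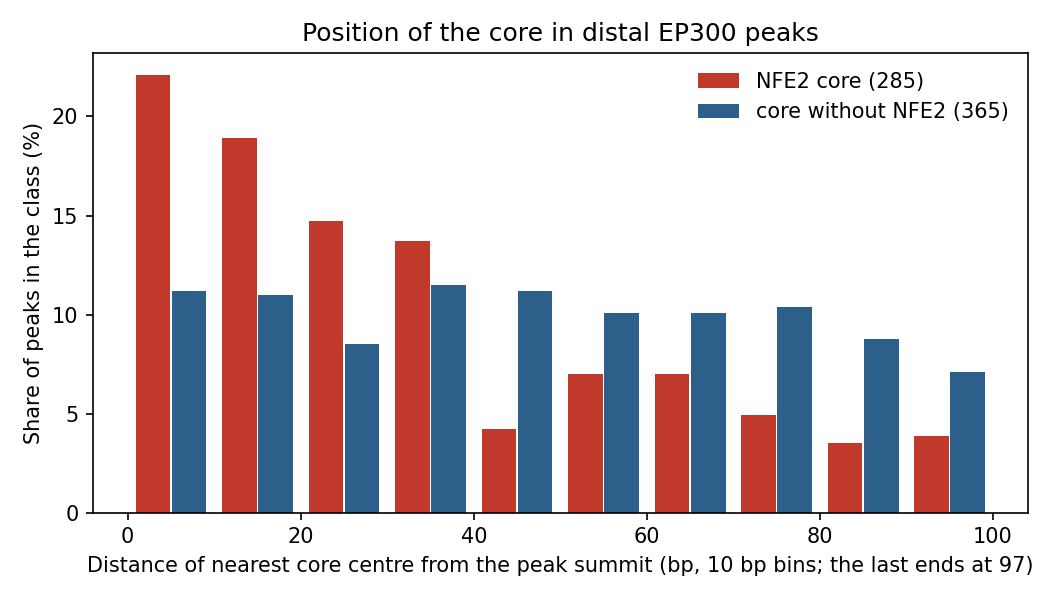
Share of peaks (%) by the distance of the nearest core centre from the peak summit, in bins of 10 bp up to 97 bp, for the 285 peaks with an NFE2 core (red) and the 365 with a core but no NFE2 core (blue). The red bars are highest next to the summit, with a median distance of 23.0 bp, and the blue bars stay nearly level, with a median of 47.0 bp.

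GATA1 is the factor that most marks red cell enhancers, and its motif was looked for as A or T, GATA, then A or G, on both strands. In peaks with 1 core and 1 GATA motif, the median distance of the NFE2 core from the summit was 24.5 bp and that of the GATA motif 28.0 bp (100 peaks). In the corresponding 140 peaks without GC, the core was at 52.0 bp and the GATA motif at 24.5 bp. A single GATA motif in the 3012 other distal peaks that have just 1, and no core or composite, lay 26.5 bp from the summit. The distances of the NFE2 core (19 to 33) and of the GATA motif beside it (19.5 to 31.5) had overlapping intervals. Those of the core without GC (44 to 56) and of the GATA motif beside it (19.5 to 33.5) did not overlap.

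The NFE2 peaks often lacked a GATA motif. The motif was present in 459 of the 650 peaks (70.6%), where the share over all distal peaks without the composite was 81.5%. The 8666 other distal peaks without core or composite had it in 82.4%, and the difference was -11.7 points (-15.4 to -8.27). The lower share was that of the NFE2 peaks, with 169 of 285 (59.3%, 53.5 to 64.8) against 290 of 365 (79.5%, 75.0 to 83.3) in the peaks without GC, a difference of -20.2 points (-27.1 to -13.1). The peaks without GC and the other distal peaks differed by -2.90 points, with an interval that includes 0 (-7.42 to 1.01). Among as many top-ranked peaks of each library as the optimal list holds, the difference between NFE2 peaks and peaks without GC was -21.5 points in replicate 1 (-28.9 to -14.0) and -24.6 points in replicate 2 (-32.0 to -17.0).

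Other motifs were present at shares close to those of other distal peaks. The E-box CAG, A or C, TG, a site of TAL1 and its partners, was found in 35.7% of the 650 peaks and in 32.3% of other distal peaks. A CACCC box, the site of KLF1, was found in 10.5% and 12.8%, an ETS motif in 7.69% and 7.32%, and a RUNX motif in 11.4% and 13.6%. Among motifs of hepatocyte factors, that of FOXA was found in 5.69% and 5.56%, and that of CEBP in 8.0% and 8.80%. The antioxidant element TGACNNNGC was found in 76.5% of NFE2 peaks, in 8.22% of peaks without GC and in 8.62% of other distal peaks, but it overlaps the NFE2 core by construction. It was found in 10.4% of all distal peaks and in 6.25% of their flanks.

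Signal, the authors' own value for each peak, was a little below that of all distal peaks. It ran from 5.24 to 515.6 with a median of 36.6 (33.4 to 41.2), against 42.2 (41.2 to 43.1) in all distal peaks, and the median percentile among them was 44.1 (40 to 49.1). All distal peaks include those with the composite. The other distal peaks without core or composite had a median of 37.6 (36.9 to 38.8), and the intervals overlap. The median was 37.2 in the NFE2 peaks and 34.8 in the peaks without GC. The composite peaks were stronger, at 60.2 without a core and 65.9 in the 178 peaks with both a core and a composite. Of the 650 peaks, 70 fell in the lowest decile of distal peaks by signal (5.57% of that decile) and 44 in the highest (3.50%).

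The strongest peaks nevertheless rank among the top of the whole list. The peak near Lao1, which encodes an amino acid oxidase, had a signal of 515.6 and was rank 8 of the optimal list, rank 7 in replicate 1 and rank 14 in replicate 2. Its summit was 71415 bp from the start of that gene. The peak in the intron of Carmil1, whose product regulates actin capping, had a signal of 487.6 and ranked 19 and 36 in replicates 1 and 2. Its core was centred on the summit itself. All 12 of the strongest peaks had a GATA motif, 4 had an NFE2 core, and none ranked lower than 399 in replicate 1 or 465 in replicate 2. All 12 lay in the highest decile by signal, where 96.7% of all distal peaks had a GATA motif. For others of the 12 the nearest coding genes were Ndst4 (468.3), Clint1 (392.2), Hbb-y (377.7 and 349.1), Frs2 (339.0), Cdc42ep3 (333.2), Med13l (322.8), Ifnar2 (319.0) and Hlx (313.6). Several were far away, with 133189 bp to the start of Ndst4, 80508 to Med13l, 74024 to Hlx and 46395 to Clint1. Whether any of these peaks acts on the gene named was not tested. Hlx encodes a homeobox factor needed for growth of the fetal liver. Among the 8 strongest with an NFE2 core were further peaks nearest to Nck2 (298.7), Ikzf1 (266.2), Lacc1 (257.5, at 152545 bp) and Mbd2 (252.2). All 8 had a GATA motif, and they lay in the same highest decile.

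**Figure D2:**
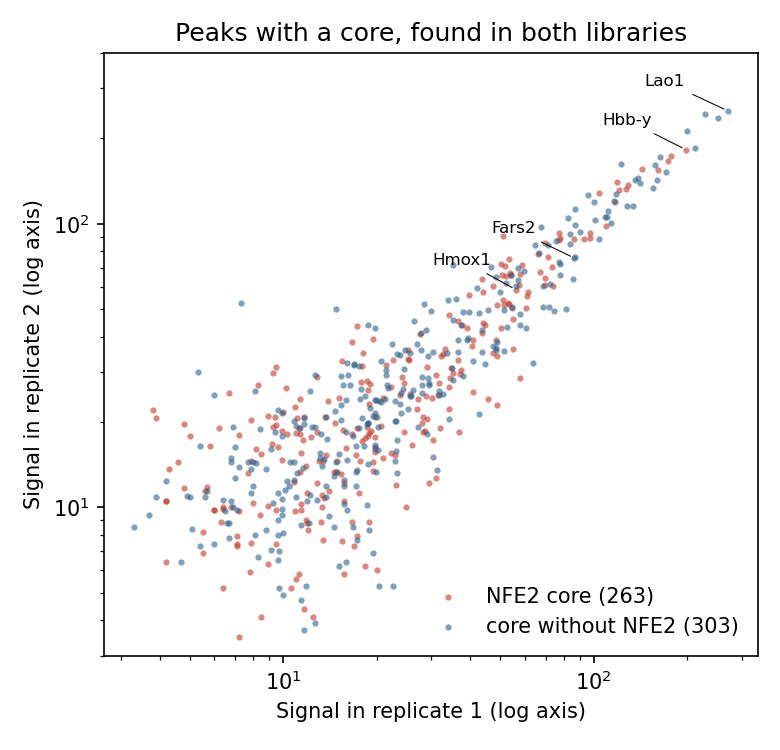
Signal in replicate 2 against signal in replicate 1 (log axes, the authors' own values on each library's own scale) for the 566 peaks found in both libraries, 263 with an NFE2 core (red) and 303 without (blue). Signals run from 3.3 to 270.1 in replicate 1 and from 3.5 to 250.2 in replicate 2. Strong peaks such as those near Lao1 and Hbb-y lie close to one line, and weak ones scatter widely.

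NFE2 peaks had summits in both libraries more often than the peaks without GC. Each library's own list held 300000 peaks, far more than the optimal list, so a summit there is a lenient measure and not a reproducible call. A summit of each library lay within 100 bp for 566 of the 650 peaks (87.1%), where all distal peaks had a share of 88.4%. It did so for 263 NFE2 peaks (92.3%, 88.6 to 94.8) and for 303 peaks without GC (83.0%, 78.8 to 86.5), a difference of 9.27 points (4.18 to 14.2). Other distal peaks with the same spread over signal deciles as the NFE2 peaks would have a share of 87.6%, and with that of the peaks without GC 85.4%. The conservative list held 505 of the 650 (77.7%), where the share of all distal peaks was 80.9%. By that measure the classes were close, with 78.6% of NFE2 peaks (73.5 to 83.0) and 77.0% of peaks without GC (72.4 to 81.0).

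Among peaks without a GATA motif, those with an NFE2 core had a higher median signal and recurred more often, in a split made after the data had been seen. Without a GATA motif, the median signal was 30.4 in 116 NFE2 peaks (26 to 40.4), 21.7 in 75 peaks without GC (18.0 to 26.4) and 22.6 in 1529 other distal peaks (21.3 to 23.6). The intervals of the classes with a core just overlap. With a GATA motif the medians were 42.9, 43.8 and 43.0 in 169, 290 and 7137 peaks. Both libraries had a summit for 86.2% of the NFE2 peaks without GATA and for 66.7% of the other distal peaks without GATA, a difference of 19.5 points (11.7 to 25.2). These shares were not matched for signal. The conservative list held 68.1% of these NFE2 peaks and 59.0% of these other distal peaks. With GATA the shares were 96.4% (92.5 to 98.4) and 90.1% (89.4 to 90.8).

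The difference in signal was not seen with equal clarity in both libraries. In replicate 1 the median percentile of signal was 33.1 in NFE2 peaks without GATA (22.6 to 39.0) and 27.6 in other distal peaks without GATA (25.4 to 29.9), and the intervals overlap. In replicate 2 it was 39.3 (33.8 to 44.4) and 26.1 (24.1 to 28.9), and they do not. Peaks not found in a library are missing from its value.

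**Figure D3:**
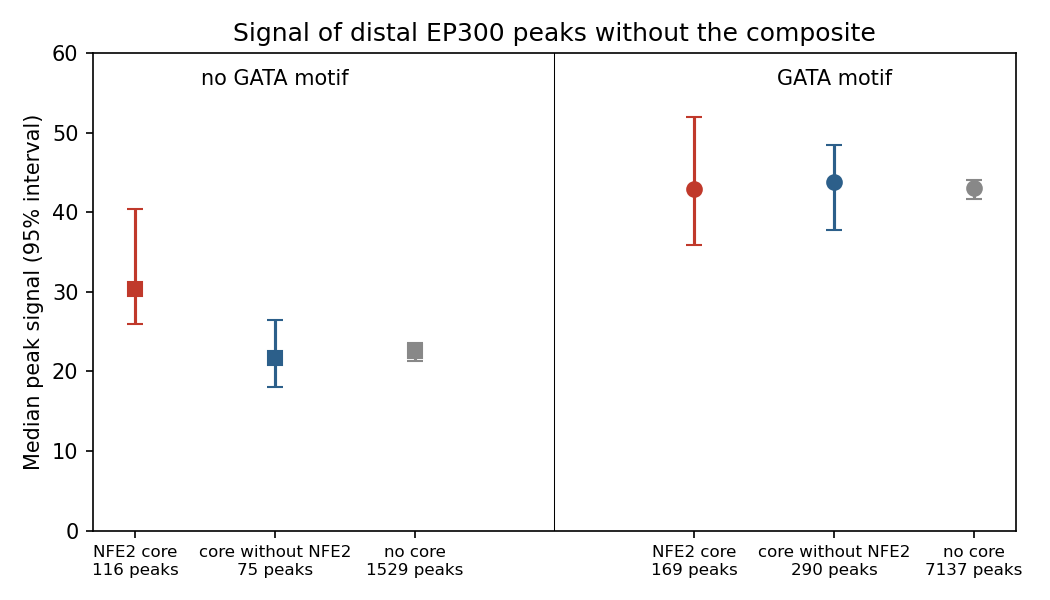
Median peak signal with 95% interval (the authors' own unit) of distal peaks without the composite, split by a GATA motif within 100 bp of the summit, for peaks with an NFE2 core, with a core but no NFE2 core, and with no core. Without GATA the NFE2 peaks have a median of 30.4 against 21.7 and 22.6, and with GATA the medians are 42.9, 43.8 and 43.0.

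A linear fit of log2 signal over all 12570 distal peaks gave a mixed answer on the core. It held the composite, the number of GATA motifs, 4 further motifs, GC content and distance to the TSS as other terms. The difference for an NFE2 core was 0.23 (0.10 to 0.36, standard error by locus) and that for a core without it 0.02 (-0.09 to 0.13). For the optimal peaks with signal from replicate 1 the NFE2 difference was 0.09 (-0.05 to 0.23) and from replicate 2 it was 0.13, with intervals that include 0 in both. With the core terms alone it was -0.02 (-0.16 to 0.12). When the peaks themselves were the top-ranked ones of 1 library, with that library's signal, it was 0.16 in replicate 1 (0.04 to 0.28) and 0.20 in replicate 2 (0.08 to 0.32). The value thus depended on the other terms and on which peaks were taken.

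In the authors' longer pooled list of 300000 peaks, the NFE2 core was most frequent in the top 17000 and became rare further down. In ranks 1 to 5000 an NFE2 core lay within 100 bp of 2.47% of distal summits, and in ranks 5001 to 10000 and 10001 to 17000 of 2.85% and 2.76%. The share was 1.82% in ranks 17001 to 30000, 0.741% in ranks 30001 to 50000 and 0.437% in ranks 200001 to 300000. The core without NFE2 moved far less, with 3.82% in the first of these ranges and 3.0% in the last. The median distance of the NFE2 core from the summit was 23.0 bp in the first range, 31.0 bp in ranks 17001 to 30000 and 45.5 bp in ranks 30001 to 50000. The ranges were set after the list had been seen.

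**Figure D4:**
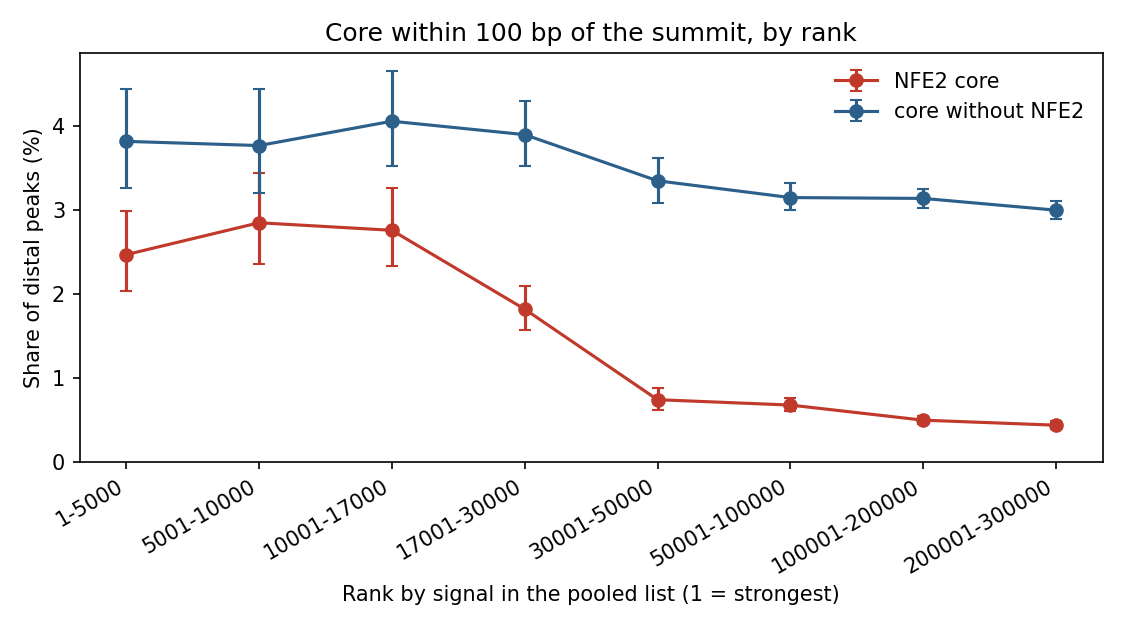
Share of distal peaks (%, with 95% Wilson interval) that have an NFE2 core (red) or a core but no NFE2 core (blue) within 100 bp of the summit, by rank in the pooled list from strongest to weakest. The NFE2 share lies between 2.47% and 2.85% down to rank 17000 and at 0.741% or less below rank 30000, while the other share stays between 3.0% and 4.06%.

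Several peaks held cores in series. Of the 650 peaks, 585 had 1 core, 46 had 2 and 19 had 3 or more. Of those 19, 18 had an NFE2 core and 14 had no GATA motif. The 40 peaks with 2 or more NFE2 cores had a median signal of 50.1 (36.9 to 84.3), against 35.9 (30.8 to 41.5) in the 245 with 1. These intervals overlap. By cores of any kind, the median was 36.3 (32.9 to 41.1) with 1, 33.7 (25.1 to 55.8) with 2 and 43.1 (33.1 to 116) with 3 or more. A GATA motif was present in 35.0% of the peaks with 2 or more NFE2 cores, against 63.3% of those with 1. Of the 99 pairs of neighbouring cores, 10 were 10 bp apart and 10 were 21 bp apart, more than at any other distance. Without the peak of 10 cores nearest to Gmpr, 9 of 90 were 10 bp apart, 6 were 26 bp apart and 5 were 21 bp apart, so the count at 21 bp rested on that repeat.

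The strongest of the 19 lay in an intron of Fars2, a mitochondrial tRNA synthetase gene, with 4 cores, a signal of 173.9, and ranks 1610 and 1651 in replicates 1 and 2. The peak near Usp7, a deubiquitinase gene, had 3 cores within 51 printed bases, a signal of 157.5 and ranks 1933 and 1693. That near Cetn3, a centrin gene, repeats a 13-base unit, with a signal of 87.4 and ranks 3884 and 4303. None of these had a GATA motif. The peak with 10 cores, nearest to Gmpr, had no NFE2 core, a signal of 33.1 and ranks 9287 and 8468. The remaining peaks with 3 or more cores were nearest to Eya1 (123.8), Hmox1 (118.9), Pip4p2 (116.1), Rps15a (81.4), Cep70 (64.2), Lrrc49 (49.8), Etnk1 (43.1), Htatip2 (41.9), Clstn1 (37.2), D430041D05Rik (36.9), Celf2 (36), Cox7a2l (28.6), Hfm1 (25.7), Abhd5 (20.6) and Nbas (15.7). Of all 19, the peak near Abhd5 was the one without a summit in replicate 2.

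**Figure D5:**
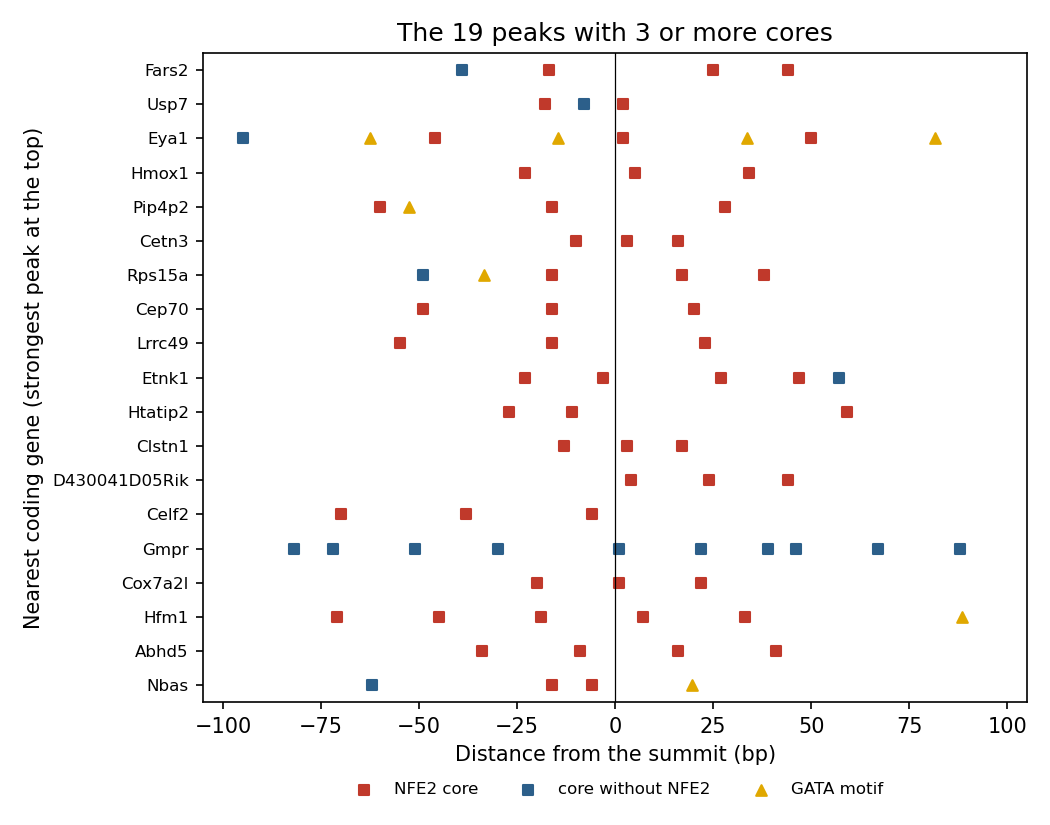
Positions, in bp from the summit, of NFE2 cores (red squares), other cores (blue squares) and GATA motifs (yellow triangles) in the 19 peaks with 3 or more cores, strongest at the top. In 18 of the 19 at least 1 square is red, 14 have no triangle, and the peak nearest to Gmpr shows 10 blue squares across the window.

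Genes of the antioxidant response had such peaks nearby, and each of those peaks had an NFE2 core and no GATA motif. Over all protein-coding genes, 513 of 21755 (2.36%) had one of the 650 summits within 20 kb of a TSS, and 8.83% of the 5807 genes with any distal peak (26.7% of all) did. Of 24 listed antioxidant genes, 13 had a distal peak and 6 had one with a core. The lists were made from textbook knowledge with earlier results of these data known, and their counts were not tested. Because the list holds known NRF2 and BACH1 targets, which are known for this very sequence, its count is not independent evidence.

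Hmox1 encodes heme oxygenase, which breaks down heme, and both of its distal peaks within 20 kb were among the 650. The one 9644 bp upstream of its start held 3 NFE2 cores, with the nearest 5 bp from the summit, a signal of 118.9 and ranks 2903 and 2939 in replicates 1 and 2. The one at 3861 bp held 1, with a signal of 24.4 and ranks 12227 and 15336. Fth1 and Ftl1 encode the ferritin chains that store iron. The peak 1974 bp from Fth1 had a signal of 131.8 and ranks 2188 and 2623, and that 1117 bp from Ftl1 a signal of 40.1 and ranks 17276 and 8926.

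Gclc encodes the catalytic subunit of the first enzyme of glutathione synthesis, and its peak had a signal of 55.6 and ranks 6954 and 6180. The heme transporter gene Slc48a1 had a peak with 2 NFE2 cores, a signal of 30.7 and ranks 13899 and 10021. Tkt encodes transketolase of the pentose phosphate pathway, and its peak had a signal of 24.8, rank 9012 in replicate 1 and rank 47725 in replicate 2. The libraries placed the peaks of Hmox1, Fth1 and Gclc at similar ranks, and those of Ftl1 and Tkt far apart.

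Of 14 genes of the NFE2, NRF, BACH and MAF family, Bach1 alone had one of the 650 peaks within 20 kb, among 6 genes with a distal peak. Bach1 encodes the heme-sensitive repressor of Hmox1. It had 2, both in its introns, with an NFE2 core and no GATA motif. The peak 1109 bp from its start had a signal of 79.9 and ranks 4214 and 4821, and that at 14175 bp a signal of 42.7 and ranks 8754 and 7607. Nfe2, Mafk, Mafg, Bach2 and Nfe2l2 had none of the 650 within 50 kb, and neither did Jun or Fos. Distal peaks of any kind there numbered 0 for Nfe2, Jun and Fos, 1 each for Mafg and Nfe2l2, 2 for Bach2 and 4 for Mafk. None of the 12 AP-1 family genes had one within 20 kb, and 2 of them had any distal peak.

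Red cell genes had such peaks as well. Of 33 genes for globins and red cell membrane proteins and receptors, 28 had a distal peak, 10 had one with a core and 9 had one with an NFE2 core; neighbouring globin genes share peaks. The globin enhancers upstream of Hbb-y, the embryonic beta-like globin gene, are known for paired NFE2 sites. The nearer of its 2 peaks lay at 7866 bp, with a signal of 377.7 and ranks 127 and 208, and the farther at 12716 bp, with 349.1 and ranks 231 and 268. Nprl3, whose introns hold enhancers of the alpha-globin genes, had 10 distal peaks within 20 kb, and the 1 with a core had no NFE2 core, a signal of 245.3 and ranks 889 and 817. An NFE2 peak 3444 bp from Hba-a2, an adult alpha-globin gene, had 23.4 and ranks 16359 and 11574.

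Other genes of this list had peaks at lower signal. Kel, a blood group gene, had a peak at 113.3 without an NFE2 core and another at 46.6 with one. Slc4a1, the anion exchanger of the red cell, had NFE2 peaks at 40.4 and 6.12, and the second, in a coding exon, had no summit in replicate 1. Of 14 heme synthesis and iron import genes, 10 had a distal peak and 3 had one with a core. Their signals were 109.2 at Fech, which encodes the enzyme that puts iron into heme, 44.2 near Tmem14c and 12.2 at Abcb10. The peak at Abcb10 ranked 10045 in replicate 1 and had no summit in replicate 2. Of 20 erythroid transcription factor genes, 16 had a distal peak and 3 had one with a core. Foxo3 had 3 such peaks among the 9 of its locus, more than any other locus, with signals of 279.7, 183.4 and 23.0. The peak of Tcf3 had 16.3, no summit in replicate 1 and rank 11831 in replicate 2. That of Lmo2 had 10.4 and ranks 32545 and 25570. Alas2 and Alb had none within 50 kb.

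By peak rather than by gene, closeness to erythroid genes was not beyond counting error. An erythroid gene lay within 20 kb of 19 of the 650 peaks (2.92%), where the share of all distal peaks was 1.89%. The share of other distal peaks without core or composite was 1.97%, and the difference was 0.950 points, with an interval that includes 0 (-0.140 to 2.57). No hepatocyte gene lay within 20 kb of any of the 650 (0 of 650), which allows a share of up to 0.462% by the limit of 3 counts and of 0.588% by the Wilson interval. All distal peaks had 0.286% and other distal peaks 0.335%, so a lower share was not detectable with 650 peaks. Of 22 megakaryocyte and platelet genes, 10 had a distal peak. Tbxas1 among them, which encodes thromboxane synthase, had one with a core, at 17.0 and ranks 146213 and 16150 in replicates 1 and 2. The remaining lists had none, and most held few genes with any distal peak. Such genes numbered 0 of 20 for macrophages, 2 of 20 for granulocytes and mast cells, 2 of 20 for stellate cells, 6 of 20 for endothelial cells and 3 of 20 for neurons. For hepatocytes they numbered 5 of 21 transcription factors, 12 of 29 secreted proteins and 7 of 25 enzymes.

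The surroundings of the 650 peaks differed little from those of other distal peaks. Introns held 54.9% of them, where the share of all distal peaks was 59.9%, and the difference from other distal peaks was -5.62 points (-9.60 to -1.70). More than 50% of the window was repeat-masked in 44 (6.77%), against 5.03% of all distal peaks. When neighbouring peaks were joined into loci, 583 loci held 1 of these peaks, 32 held 2 and 1 held 3. Loci of 10 or more peaks held 22 of the 650 (3.38%), where the share of all distal peaks was 2.96%.

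At the limits of the choice, the 7 peaks with a summit 1001 to 1100 bp from a TSS had signals of 7.74 to 72.8 with a median of 18.7. The 6 peaks with a core at 901 to 1000 bp, just outside, had 15.5 to 229.7 with a median of 59.8. The 42 peaks with the nearest core 88 to 97 bp from the summit had a median of 43.7, and the 37 distal peaks with it at 98 to 107 bp a median of 44.8.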

How the data were processed

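The starting point was the narrowPeak lists of EP300 ChIP-seq peaks (mm10) from 2 libraries of 1 group. Per the labels' file listings, peaks were called for each library against its own control and for both together, and were then filtered by the irreproducible discovery rate into an optimal and a conservative list. Aligner, peak caller and threshold: not given in the sources used here. The signal that the authors deposited is a value per peak from their caller, scaled separately in every list, and it only ranks or describes peaks within a list. Read totals are not in the lists, and the depth is unknown.

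The 12 optimal peaks on unplaced contigs were left out, leaving 17043 of 17055. TSSs came from GENCODE vM21 and sequence from GRCm38 (RefSeq). A total of 24 motifs were searched as consensus sequences on both strands, wholly within the window. A library had a peak when a summit from anywhere in its list of 300000 lay within 100 bp. Shares have 95% Wilson intervals, their differences Newcombe intervals, and medians order-statistic intervals. The fit was ordinary least squares with errors clustered by locus stitched at 12.5 kb (statsmodels 0.14.6; Python 3.11.15, numpy 2.4.6, pandas 2.3.3, scipy 1.17.1), and was tested on simulated data. No p-values were computed. Repeat masking is that of the genome sequence.

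The members, lists and motifs were chosen with earlier results of these data known. Genes named were those nearest to the 12 strongest peaks and the 8 strongest with an NFE2 core, those of the 5 loci with most members, up to 4 per list, those with 3 or more cores, and a fixed set. Others complete a small count and were picked with their values in view, as were the split by GATA, the single-core subsets and the pairs of bases. Of the 5 loci, those at Lao1, Slc30a10 and Hbb-y held 2 members each, and 1 item taken by the rule is not reported here. The alternatives were other peak lists, each library alone, window and distance limits, repeats, close peaks and the terms of the fit.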

Additional observations from a re-analysis of the deposited data

How the results depend on the processing

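Over 9 results and 101 alternative values, 80 kept their direction and side of the threshold or moved by less than the error, 11 became weaker, 7 moved and 3 reversed; the cause was not tested. With optimal peaks above the median signal, peaks with a core made up 4.62% of distal peaks and 80.4% of them had GATA, and the fitted log2 differences were -0.03 for a core (reversed) and 0.00 for an NFE2 core. With 50 bp on either side of the summit these shares were 3.19% and 54.1%, the NFE2 share was 51.9%, the median distance 19 bp and the core difference 0.09. With core terms alone the differences reversed, to -0.03 for a core and -0.02 for an NFE2 core. The difference for a core, 0.10 as reported (0.02 to 0.19), lost its distance from 0 with top pooled peaks (0.06), at 2.5 kb from every TSS (0.09) and with 1071 close peaks left out (0.07); leaving out 1 library gave 0.07 without replicate 2 and 0.09 without replicate 1, and 0.16 and 0.20 for an NFE2 core. Alternatives chosen after seeing the data were peaks with 1 core (NFE2 share 40.0%, core difference 0.08), the signal of replicate 1 (0.04 for a core, 0.09 for an NFE2 core) and of replicate 2 (0.08 and 0.13), and the NFE2 term split by GATA (0.41 without, 0.22 to 0.60, and 0.20 with, 0.03 to 0.37). The split did not keep its order in both libraries. Replicate 1 signal gave 0.11 without GATA (-0.11 to 0.33) and 0.14 with it (-0.04 to 0.32). Replicate 2 signal gave 0.24 (0.05 to 0.44) and 0.14 (-0.04 to 0.32). No paired analysis was possible because both libraries belong to 1 group. Unknown depth limits every statement on peaks not found.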

Other observations

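The spacing of core and GATA motif was compared in peaks with both, with overlapping intervals and no test. More GATA motifs in a window bring the nearest one closer by geometry. Their mean number was 0.842 over all NFE2 peaks and 1.32 over all peaks without GC. The nearest GATA motif was a median of 39.5 bp from the core in 169 NFE2 peaks (31.5 to 47.5) and 32.5 bp in 290 peaks without GC (28.5 to 37.5). It was within 20 bp in 18.3% of the NFE2 peaks (13.2 to 24.9) and in 28.6% of the peaks without GC (23.7 to 34.1), a limit chosen after the distances had been seen.

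The base before GC was also compared in peaks with 1 core, with overlapping intervals and no test. With TGC on one side the core lay a median of 26.5 bp from the summit (146 peaks, 21 to 32), and with another base and then GC 36 bp (77 peaks, 24 to 45). The 9 peaks with GC on both sides had a median of 58.0 bp (23.0 to 68.0).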
